A study of Mus musculus with 97 samples.

Results

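Esrrb bookmarked sites are a set of genomic regions, named in the deposited profile table, at which the transcription factor Esrrb is reported to stay bound while mouse embryonic stem (ES) cells divide. The table holds 28 averaged profiles of these sites among 188 profiles of all site sets, and every profile whose region is given as the bookmarked set was used. Of the 28, 14 are per-base profiles and 14 are smoothed versions of the same profiles. Each profile gives 1 value per base from 1000 bp on one side of a centre to 1000 bp on the other, averaged over all sites of the set. How many sites were averaged, how they were called and where they lie in the genome are not given in the sources used here, so no site sequence is shown.

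Esrrb is an orphan nuclear receptor that binds a short DNA motif as a monomer and takes part in the network that keeps ES cells pluripotent. Many transcription factors are reported to leave chromosomes in mitosis, when chromatin compacts and transcription falls. A factor that stays on part of its sites is called a mitotic bookmarking factor. A bound factor can act as a barrier against which nucleosomes line up, which gives an array of evenly spaced nucleosomes on either side. Averaged over sites, such an array appears as a wave that fades with distance.

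Chromatin was measured in 34 libraries from E14tg2a cells (Tg2a in the labels), a male mouse ES cell line grown on gelatine with serum and LIF. ATAC-seq, in which a transposase cuts open DNA, had 2 libraries from interphase cells and 2 from mitotic cells. MNase-seq, in which micrococcal nuclease digests the DNA between nucleosomes, was done at 3 enzyme concentrations, labelled 0.5, 16 and 128 without a unit, with 3 libraries per concentration and state. MNase-H3, labelled as an MNase ChIP of FA-fixed cells, added immunoprecipitation of histone H3, so that fragments bound to H3 were enriched, and had 2 libraries per concentration and state. The labels give no fixative for MNase-seq itself. Mitotic cells for MNase-seq and MNase-H3 had received nocodazole, a microtubule poison that stops cells in mitosis, at 50 ng/ml for 4 to 5 h, and were shaken off and filtered. Interphase cells were untreated and trypsinised, so that drug and state went together in these comparisons. For ATAC-seq the protocols used here name no such step. ES cell identity could not be checked from marker genes, because no RNA was measured in these libraries.

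The table holds 1 profile for each assay, state and concentration, so libraries had been combined and no difference below has a replicate check. Errors are standard errors (SE) from the scatter between neighbouring bases or from a fit, and 95% intervals were built from them. They cover local scatter along a profile. They do not cover the spread between sites, between the left and right side of a profile, or between cultures. In mitotic ATAC the level far from the centre, called the flank below, was 0.00207 on the left and 0.00217 on the right. Each had an SE of 2.00e-05, so the sides differed by more than these errors. The intervals below, including those between site sets, are therefore too narrow by an unknown amount. The scale of the values and the sequencing depth are unknown. Base-to-base scatter was 4.94% to 8.94% of the mean level in the MNase profiles, 10.1% to 18.1% in MNase-H3 and 6.99% to 7.80% in ATAC, so MNase-H3 gave the least precise values.

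Accessibility at the summit of the bookmarked sites was lower in mitosis, and on the deposited scale it was higher away from the summit. Within 50 bp of the summit the mean ATAC cut-site value was 0.00353 in interphase and 0.00306 in mitosis, a mitosis to interphase ratio of 0.868 ± 0.00704 (SE). The ratio was 0.895 at 50 to 100 bp and 0.971 at 100 to 200 bp. It passed 1 further out on that scale, at 1.05 between 200 and 300 bp, 1.10 ± 0.00467 between 300 and 600 bp and 1.07 between 900 and 1000 bp. Divided by the flank of the same profile, the mean at 900 to 1000 bp on both sides, the ratio was 0.808 within 50 bp, 0.905 at 100 to 200 bp, 0.978 ± 0.0112 at 200 to 300 bp, 1.02 ± 0.0102 at 300 to 600 bp and 1.03 ± 0.0105 at 600 to 900 bp. The mitotic profile was thus flatter on both scales, while how far its shoulders stood above interphase depended on the scale, which is not stated. In averaged profiles a smaller share of cells or sites with open chromatin and fewer cuts in each cannot be told apart.

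**Figure D1:**
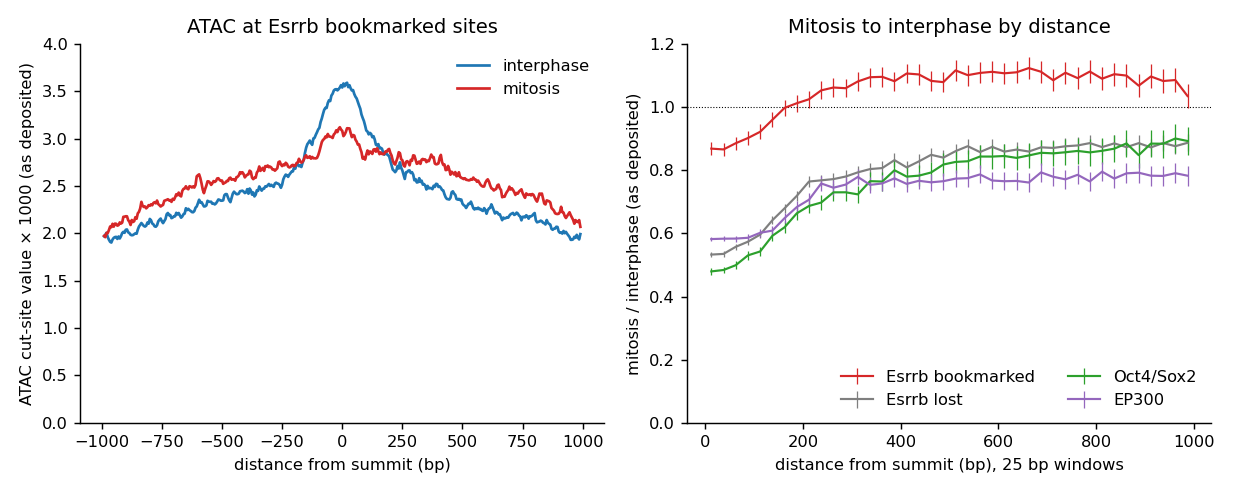
Left, ATAC cut-site value (as deposited, times 1000) against distance from the summit of Esrrb bookmarked sites, as a 21 bp running mean, for interphase (blue) and mitosis (red). Right, mitosis to interphase ratio in 25 bp windows by distance for 4 site sets, with 95% intervals as bars; the bookmarked sites rise above 1 beyond 200 bp.

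Relative to its own flank the summit stood 1.79 ± 0.0140 times higher in interphase and 1.44 ± 0.0135 times higher in mitosis. Both sides of the summit gave the same order, with 1.79 and 1.79 in interphase and 1.48 and 1.41 in mitosis for the left and right side. The width of the peak midway between its top and the flank was 358 bp in interphase and 831 bp in mitosis with a running mean of 21 bp. The mitotic width depended on the smoothing and was 436 bp with 11 bp and 861 bp with 51 bp, whereas the interphase width was 357 bp and 365 bp.

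In the same ATAC libraries the mitotic decrease was larger at 3 of the other 4 site sets, and the remaining set, transcription start sites (TSS), was higher in mitosis. Sites labelled as lost by Esrrb in mitosis had a summit ratio of 0.535 ± 0.00293 as deposited, and regions bound by Oct4 and Sox2, the central pluripotency factors, had 0.481. Regions of EP300, the histone acetyltransferase of active enhancers, had 0.582. At TSS, centred on the start site, the ratio was 1.34 as deposited and 1.24 divided by the flank. The ratio at bookmarked sites was 1.62 times that at lost sites (95% interval 1.59 to 1.65), and 1.80 and 1.49 times those of the Oct4/Sox2 and EP300 regions. Divided by the flank, these comparisons gave 1.33 (1.29 to 1.37), 1.49 and 1.09 (1.05 to 1.12). Most of the distance to the EP300 regions thus lay in the flank. The intervals of these comparisons leave out the spread between the sites of a set. The flank itself was higher in mitosis at bookmarked sites, with a ratio of 1.07, and at TSS, with 1.08, and lower in the remaining sets, with 0.880 at lost sites, 0.890 at Oct4/Sox2 and 0.785 at EP300. In interphase the bookmarked summits had the lowest value of the 5 sets, at 0.00353 against 0.00399 at lost sites, 0.00445 at Oct4/Sox2, 0.00746 at EP300 and 0.00971 at TSS. In mitosis they stood above the lost sites (0.00213) and the Oct4/Sox2 regions (0.00214) and below EP300 (0.00435) and TSS (0.0130).

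MNase fragment midpoints, which mark the middle of each protected fragment, formed an array of peaks around the Esrrb motif of the bookmarked sites, and this array was taller in mitosis at every concentration and with both kinds of library. These profiles are centred on the motif, and those of ATAC on a point labelled only as the summit. Positions in the 2 kinds of profile therefore do not refer to the same point. Peaks and troughs were read from a 21 bp running mean with both sides averaged and divided by the flank. The height between each of the first 4 peaks and the following trough, averaged, is called the amplitude below. In MNase it was 0.138 in interphase and 0.200 in mitosis at concentration 0.5. At 16 it was 0.141 and 0.237, and at 128 it was 0.143 and 0.235. The mitosis to interphase ratios were 1.45 ± 0.0870, 1.69 ± 0.0821 and 1.64 ± 0.132.

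H3-bound fragments gave the same order. The amplitude in MNase-H3 was 0.159 in interphase and 0.211 in mitosis at concentration 0.5, 0.134 and 0.232 at 16, and 0.165 and 0.252 at 128. The ratios were 1.33 ± 0.144, 1.73 ± 0.175 and 1.52 ± 0.215. All 6 mitotic values lay above all 6 interphase values, which reached 0.165. Reading extremes adds scatter to a height, and more so in the noisier MNase-H3 profiles, so a second measure was taken.

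**Figure D2:**
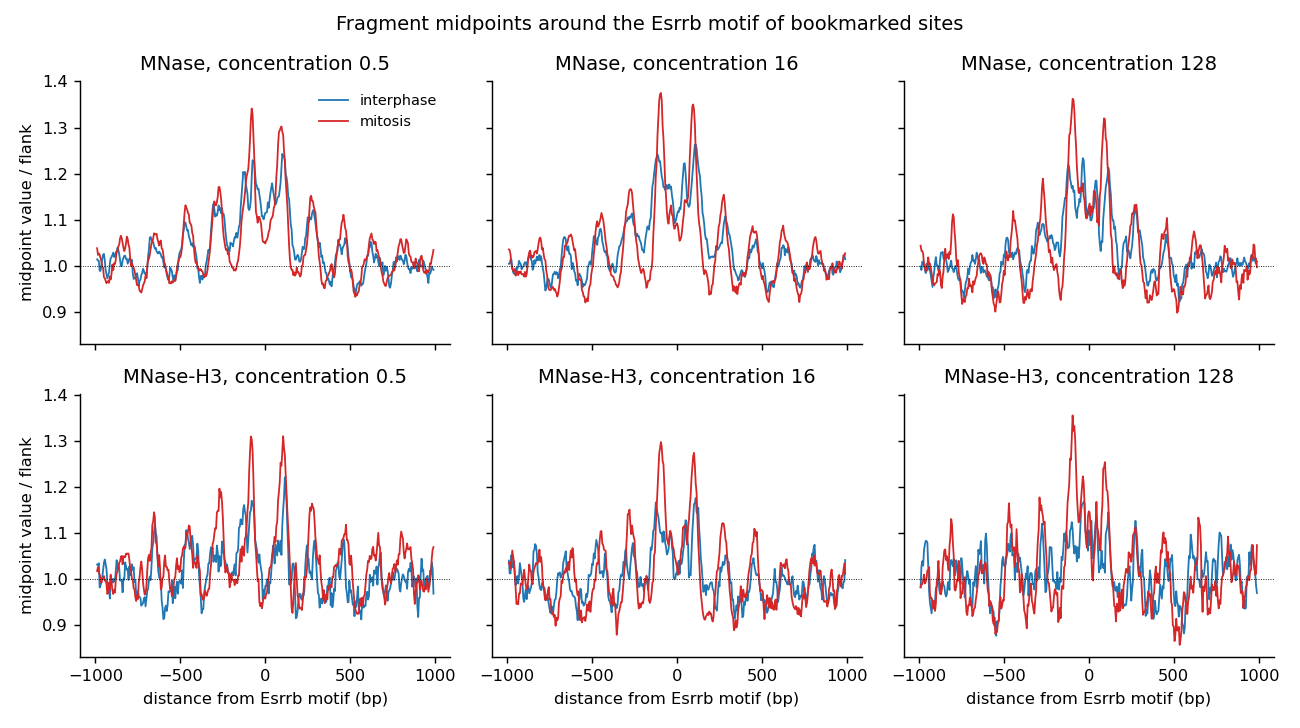
Fragment midpoint value divided by the flank (21 bp running mean) against distance from the Esrrb motif at bookmarked sites, for MNase (top) and MNase-H3 (bottom) at 3 MNase concentrations, in interphase (blue) and mitosis (red). Peaks recur on both sides of the motif, and the mitotic peaks next to the motif are the taller ones in all 6 panels.

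That second measure was the height of a cosine fitted to the unsmoothed values at 150 to 900 bp from the motif, called the wave height here, again relative to the flank. For MNase at concentration 0.5 it was 0.0856 ± 0.00495 in interphase and 0.129 ± 0.00445 in mitosis. At 16 it was 0.0785 ± 0.00409 and 0.146 ± 0.00471, and at 128 it was 0.0656 ± 0.00661 and 0.141 ± 0.00696. The mitotic wave was therefore 1.51, 1.85 and 2.15 times as tall. In MNase-H3 the wave height was 0.0756 ± 0.00970 and 0.129 ± 0.00845 at 0.5, 0.0790 ± 0.00807 and 0.141 ± 0.00774 at 16, and 0.0828 ± 0.0134 and 0.139 ± 0.0122 at 128. These correspond to ratios of 1.71, 1.79 and 1.68. In all 6 conditions the difference was larger than its 95% interval.

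The taller wave was found near to and far from the motif. Fitted at 150 to 500 bp alone, the wave height was 0.0852 to 0.123 in interphase and 0.164 to 0.187 in mitosis, higher in mitosis in 6 of 6 conditions, each beyond its 95% interval. Between 500 and 900 bp it was 0.0460 to 0.0721 in interphase and 0.0954 to 0.117 in mitosis, again higher in 6 of 6, with 4 beyond the interval. The far wave had a median of 0.646 times the near wave in interphase and 0.590 times in mitosis, so the array faded with distance in both states. Each side of the motif alone also had a taller wave in mitosis in 6 of 6 conditions, from 0.0715 to 0.0934 in interphase and 0.125 to 0.155 in mitosis on the left, and from 0.0626 to 0.0911 and 0.122 to 0.140 on the right. Whether the sites were turned to a common motif strand is not stated, so left and right carry no orientation here.

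The distance between nucleosomes showed no change common to the 6 conditions. The fitted period of the wave, which measures the repeat from one nucleosome to the next, ranged from 170 to 186 bp over the 6 interphase profiles and from 180 to 183 bp over the 6 mitotic profiles. The medians were 181.3 and 182.0 bp. The difference between states included 0 in its 95% interval in both libraries at concentration 0.5 and in MNase-H3 at 16. At 128 it was -6.82 bp (-12.4 to -1.22) in MNase and 12.9 bp (4.73 to 21.0) in MNase-H3, in opposite directions, and at 16 in MNase it was 2.85 bp (0.0130 to 5.69). These intervals do not cover the spread between the sides of one profile. In interphase MNase the left and right side gave 188 and 177 bp at 0.5, 184 and 173 bp at 16, and 188 and 178 bp at 128. In interphase MNase-H3 they gave 181 and 184 bp, 184 and 174 bp, and 171 and 169 bp.

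The first nucleosome peak beside the motif was taller in mitosis. Its height over the flank was 1.21, 1.25 and 1.22 in interphase MNase at concentrations 0.5, 16 and 128, and 1.32, 1.37 and 1.34 in mitosis. In MNase-H3 it was 1.18, 1.16 and 1.11 in interphase and 1.26, 1.29 and 1.30 in mitosis. The mitotic and interphase values did not overlap, the lowest mitotic one being 1.26 and the highest interphase one 1.25. On each side alone the first peak was also taller in mitosis in 6 of 6 conditions. With both sides averaged, the trough after the first peak was deeper in mitosis in 6 of 6, with differences of -0.0610 to -0.00786. On the left side alone it was deeper in 5 of 6 and on the right in 6 of 6. Fixed windows cannot tell a taller peak or deeper trough from a shifted one. The first peak lay at 109 to 125 bp in interphase and 80 to 98 bp in mitosis. The trough after it lay at 177 to 228 bp in interphase and 169 to 213 bp in mitosis. At 80 to 120 bp from the motif the flank-divided level was 1.06 to 1.16 times that of interphase in mitosis, higher in 6 of 6 conditions, and at 150 to 200 bp the mitosis to interphase ratio was 0.911 to 0.972, lower in 6 of 6. Further out the windows differed less, with ratios of 0.999 to 1.05 at 225 to 325 bp, higher in 5 of 6, and 0.960 to 1.01 at 350 to 400 bp, higher in 3 and lower in 3. With both sides averaged, the second peak and the third were taller in mitosis in 6 of 6 conditions and the fourth in 5 of 6. On each side alone these peaks were taller in 6 of 6, except the second on the right (5 of 6) and the fourth on the left (4 of 6).

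With both sides averaged, the first peak also lay nearer to the motif in mitosis. Its distance in MNase was 112, 109 and 121 bp in interphase and 80, 98 and 93 bp in mitosis at concentrations 0.5, 16 and 128. In MNase-H3 it was 119, 125 and 116 bp in interphase and 91, 98 and 95 bp in mitosis. The shift was -32 to -11 bp, nearer in 6 of 6 conditions. The position was less stable than the height. In interphase MNase-H3 at 128 the first peak, at 1.11, was about as high as the mean level within 50 bp of the motif, also 1.11. With a 51 bp running mean that peak fell at 50 bp, where the search starts. On the right side alone the peak was nearer in mitosis in 6 of 6 conditions, with shifts of -23 to -6 bp, but on the left side in 4 of 6, and with a running mean of 11 or 51 bp in 5 of 6. On the left side the highest point fell at 72 to 122 bp in interphase and at 79 to 98 bp in mitosis, so the interphase positions were the more spread.

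The second peak moved less, and the positions further out had no shift common to all conditions. The second peak lay at 276 to 301 bp in interphase and 267 to 279 bp in mitosis, nearer in 6 of 6 conditions with a median shift of -7.5 bp with both sides averaged, but nearer in 2 of 6 on the left side alone and in 6 of 6 on the right. The third peak lay at 453 to 477 bp and 445 to 474 bp, nearer in 5 of 6. The fourth lay at 602 to 674 bp and 614 to 659 bp, nearer in 4 of 6, and its shift had a median of -35.5 bp and ranged from -51 to 43 bp, so no direction could be read from it.

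**Figure D3:**
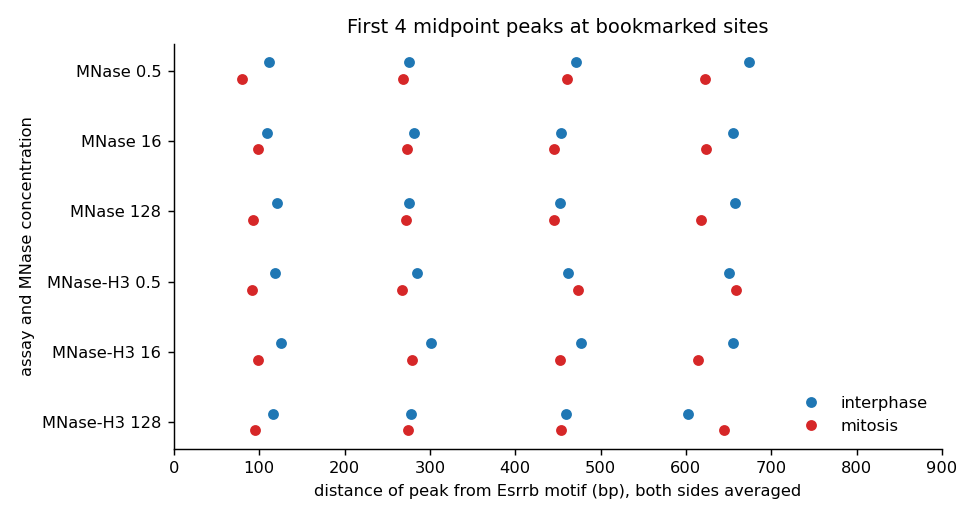
Distance of the first 4 midpoint peaks from the Esrrb motif at bookmarked sites (bp, both sides averaged, 21 bp running mean), for each assay and MNase concentration, in interphase (blue) and mitosis (red). The first peak lies at 109 to 125 bp in interphase and 80 to 98 bp in mitosis.

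The level between the first peaks was lowest within 21 bp of the motif in 10 of the 12 profiles. In interphase at concentration 128 it was lowest 70 bp away in MNase and 59 bp away in MNase-H3, and the motif itself stood slightly higher than its surroundings. There the level was 1.11 ± 0.0143 within 25 bp against 1.09 ± 0.0141 at 50 to 75 bp in MNase, and 1.09 ± 0.0295 against 1.05 ± 0.0290 in MNase-H3, differences within their errors. The difference between the first peak and the lowest point within 100 bp of the motif was 0.0994, 0.148 and 0.148 in interphase MNase and 0.267, 0.299 and 0.245 in mitosis at 0.5, 16 and 128. It was 0.217, 0.155 and 0.0997 in interphase MNase-H3 and 0.310, 0.273 and 0.250 in mitosis. This difference was larger in mitosis in each of these pairs, which includes the taller first peak. The lowest point itself was lower in mitosis in 3 of 6 conditions, with a change of -0.0605 in MNase at 0.5, -0.0369 in MNase at 16 and -0.0124 in MNase-H3 at 0.5. It was higher in the remaining 3, by 0.0305 in MNase at 128 and by 0.00881 and 0.0395 in MNase-H3 at 16 and 128. The mean level within 50 bp of the motif, by contrast, moved little. Its ratio to the flank in MNase was 1.14, 1.15 and 1.16 in interphase and 1.08, 1.09 and 1.14 in mitosis, and the mitosis to interphase ratios were 0.948 ± 0.00926, 0.951 ± 0.00860 and 0.986 ± 0.0141. In MNase-H3 those ratios were 0.986 ± 0.0209, 1.02 ± 0.0180 and 1.00 ± 0.0281. Only the MNase values at 0.5 and 16 differed from 1 beyond their 95% intervals, and they were 1.01 and 1.01 when the window was widened to 100 bp, which takes in the first peaks.

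The centre held fewer H3-bound than total fragments relative to the flank, mainly at low enzyme. In interphase the centre to flank ratio of MNase-H3 minus that of MNase was -0.133 (95% interval -0.169 to -0.0968) at concentration 0.5, -0.102 (-0.131 to -0.0722) at 16 and -0.0409 (-0.0920 to 0.0101) at 128. In mitosis it was -0.0883 (-0.118 to -0.0586) at 0.5, -0.0232 (-0.0524 to 0.00589) at 16 and -0.0238 (-0.0705 to 0.0229) at 128. The difference was thus negative in 6 of 6 comparisons and beyond its interval in 3. At the Esrrb motif of lost sites it was beyond the interval in 6 of 6, between -0.194 and -0.0412. The MNase and MNase-H3 libraries also differed in number, in the fixative label and in the immunoprecipitation step, and whether any of these plays a part was not tested. The wave height did not differ between MNase-H3 and MNase beyond the interval in any of the 6 comparisons at bookmarked sites, where the differences ranged from -0.00997 to 0.0172.

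The H3-bound level at the motif was higher at higher enzyme concentration. In MNase-H3 the centre to flank ratio was 1.01, 1.05 and 1.11 in interphase and 0.993, 1.07 and 1.12 in mitosis at 0.5, 16 and 128. From 0.5 to 128 the increase was 0.107 (0.0506 to 0.163) in interphase and 0.122 (0.0736 to 0.171) in mitosis. In total MNase it was 0.0145 (-0.0133 to 0.0424) in interphase and 0.0577 (0.0310 to 0.0843) in mitosis. The wave height was less sensitive to the enzyme, and 10 of 12 differences between concentrations included 0. The exceptions were interphase MNase between 0.5 and 128, at -0.0200 (-0.0362 to -0.00381), and mitotic MNase between 0.5 and 16, at 0.0168 (0.00410 to 0.0295). As these moved in opposite directions, the mitotic increase of the wave in MNase was 0.0433 at 0.5 and 0.0755 at 128, larger by 0.0322 (0.00930 to 0.0551), whereas in MNase-H3 it differed by 0.00249 (-0.0411 to 0.0461).

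**Figure D4:**
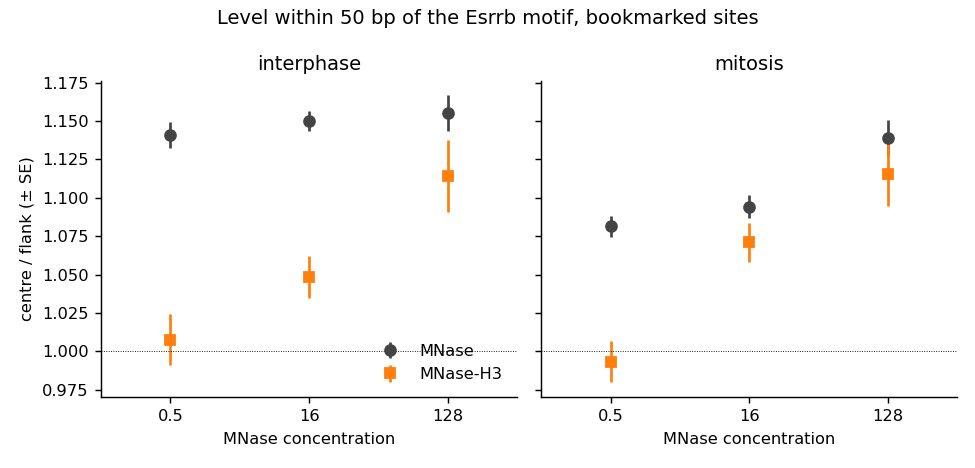
Mean midpoint value within 50 bp of the Esrrb motif divided by the flank (± SE) at bookmarked sites, by MNase concentration, for MNase (grey circles) and MNase-H3 (orange squares) in interphase (left) and mitosis (right). MNase-H3 is 1.01 at concentration 0.5 and 1.11 at 128 in interphase, and lies below MNase in each pair; the vertical axis does not start at 0.

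Other site sets measured in the same libraries did not show a mitotic increase of the wave height beyond its interval in any condition. At the Esrrb motif of lost sites the wave height was 0.0187 to 0.0313 in interphase and 0.0145 to 0.0380 in mitosis, and none of the 6 differences between states went beyond its interval. The bookmarked wave was 2.65 to 3.87 times that height in interphase and 3.66 to 9.75 times in mitosis. These folds carry no error and divide by small heights, so their size is uncertain. The 9.75 rests on a lost-site wave of 0.0145 ± 0.00611 in mitotic MNase at 128. Centred on the Oct4/Sox2 motif, the lost-site wave was 0.0435 to 0.0599 in interphase and 0.0185 to 0.0438 in mitosis, lower beyond the interval in 4 of 6. Centred on the summit it was 0.0229 to 0.0400 and 0.0101 to 0.0429, lower beyond the interval in 3 of 6. At the Oct4/Sox2 motif of the Oct4/Sox2 regions the wave was taller than at bookmarked sites in interphase, at 0.0987 to 0.118, and fell to 0.0335 to 0.0569 in mitosis, lower beyond the interval in 6 of 6 conditions. EP300 regions, centred on summits, had 0.0440 to 0.0669 and 0.0396 to 0.0619, with no difference beyond its interval. At TSS it was 0.0515 to 0.0834 and 0.0168 to 0.0344, lower in mitosis beyond the interval in 5 of 6. These include MNase-H3 at 128, where the mitotic fit ended at a period of 246 bp, outside the range of starting periods. Its height of 0.0189 may not describe the same wave.

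The amplitude read from peaks and troughs gave a less even picture at the other sets. It was higher in mitosis beyond its interval in 6 of 6 conditions at bookmarked sites, 0 of 6 at the Esrrb motif of lost sites, 2 of 6 at lost sites centred on the summit, 1 of 6 at EP300 regions and 0 of 6 at Oct4/Sox2 regions. The exceptions were MNase at 128 at EP300, with a mitosis to interphase ratio of 1.55 ± 0.178, and MNase at 16 and 128 at lost-site summits, with 1.21 ± 0.0941 and 1.49 ± 0.182. In these cases the first peak was read at 157, 194 and 180 bp in interphase and at 58, 50 and 50 bp in mitosis. Its search starts at 50 bp, so the states may not have been read at the same feature. Their wave heights were 0.0495, 0.0395 and 0.0400 in interphase and 0.0482, 0.0297 and 0.0184 in mitosis. Without regard to the interval, the amplitude was higher in mitosis in 4 of 6 conditions at the Esrrb motif of lost sites.

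The difference of the mitotic changes was itself computed. The change in wave height from interphase to mitosis at bookmarked sites exceeded that at the lost sites by 0.0467 to 0.0798, beyond its 95% interval in 6 of 6 conditions, with a lowest bound of 0.00455. It exceeded the change at Oct4/Sox2 regions by 0.102 to 0.143 and that at EP300 regions by 0.0478 to 0.0767, each in 6 of 6. Lost sites centred on their summit or on the Oct4/Sox2 motif gave differences of 0.0534 to 0.0970 and 0.0534 to 0.107, each beyond the interval in 6 of 6. With the amplitude, the change at bookmarked sites was the larger one in 6 of 6 conditions against each of these sets, beyond the interval in 5 of 6 against the Esrrb motif and against the summits of lost sites, in 4 of 6 against EP300 and in 6 of 6 against Oct4/Sox2. The 6 conditions share the site sets and the batches of cells are not given, so they are not independent replicates.

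**Figure D5:**
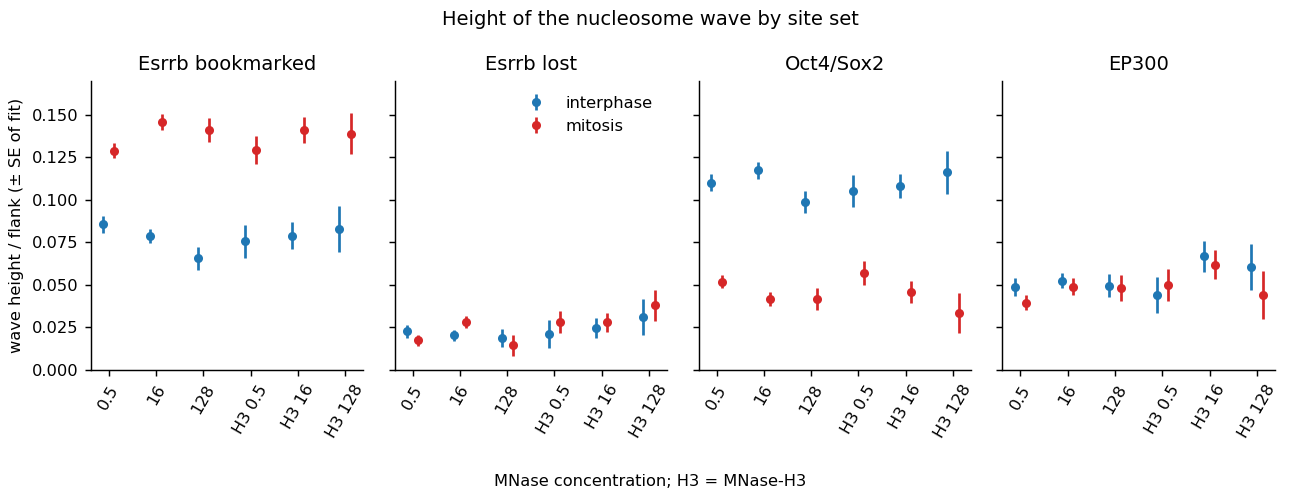
Wave height (peak to trough of the fitted cosine at 150 to 900 bp, divided by the flank, ± SE of the fit) for 4 site sets, by assay and MNase concentration, in interphase (blue) and mitosis (red). At bookmarked sites the interphase points lie at 0.0656 to 0.0856 and the mitotic points at 0.129 to 0.146; at Oct4/Sox2 regions the order is the opposite.

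The as-deposited levels of the MNase profiles also differed between states, in a way that was shared by the site sets except in MNase-H3 at 16. The flank at bookmarked sites had mitosis to interphase ratios of 1.30, 0.828 and 0.813 in MNase at 0.5, 16 and 128, and the lost sites had 1.26, 0.827 and 0.806. In MNase-H3 the ratios were 1.15, 1.03 and 0.842 at bookmarked sites and 1.13, 0.981 and 0.797 at lost sites. Because of these shifts the MNase values above are relative to the flank of the same profile. In MNase-H3 at 16 the flank rose at bookmarked sites (1.03 ± 0.0109) and fell at lost sites (0.981 ± 0.00750), Oct4/Sox2 (0.992), EP300 (0.970) and TSS (0.995). Flank-divided values of that condition carry this difference. In ATAC the flank ratio was not shared, as given above, so both scales are printed there.

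The shapes of the MNase and MNase-H3 profiles were more alike in mitosis. Over 74 windows of 20 bp at 150 to 900 bp from the motif, the correlation between MNase and MNase-H3 at bookmarked sites was 0.588, 0.669 and 0.366 in interphase and 0.835, 0.909 and 0.762 in mitosis at 0.5, 16 and 128. Between interphase and mitosis it was 0.834, 0.679 and 0.616 in MNase and 0.481, 0.635 and 0.452 in MNase-H3. The windows share the same sites, base composition and a common slope away from the motif, and a taller wave over the same scatter raises such a correlation, so these values are a description of the profiles.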

How the data were processed

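The deposited table gives averaged signal values per base (ATAC cut sites, MNase and MNase-H3 fragment midpoints) that the authors made by combining the libraries of a group; per the file headers, each profile also has a smoothed version. Scale, fragment sizes and normalization are not given in the sources used here. The submitters' processing notes name Bowtie2, MACS2, RSEM, STAR and build mm9, without versions or roles. ChIP-seq libraries and the RNA-seq tables were not analysed here.

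Profiles were read with Python 3.11.15 (NumPy, SciPy). The centre was the mean within 50 bp, the flank the mean at 900 to 1000 bp on both sides. Peaks were read from a 21 bp running mean: the first at 50 to 250 bp, each next extreme 40 to 160 bp on. A cosine with a quadratic trend was fitted at 150 to 900 bp. The fit started from the best period of 140 to 240 bp and was then unbounded. The cosine, the deposited smoothed profiles and a wider flank for the amplitude were added after the data were seen. SEs came from base-to-base scatter (centre, flank, amplitude) or the fit. On simulated profiles the cosine height, its SE, its period and the first peak distance were checked. The amplitude and the centre to flank ratio were not. Period and first peak were checked only for a simulated wave taller than those seen in interphase. The tolerance for the first peak was wider than some of its reported shifts. Members, site sets and measures were chosen with earlier results of these data known. With 1 combined profile per condition, no significance test was run and no gene was named by rule.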

Additional observations from a re-analysis of the deposited data

How the results depend on the processing

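The mitosis to interphase ratio of the nucleosome amplitude stayed above 1 in all 36 alternatives (1.18 to 2.15). Of these, 33 lay within the error or the left-right spread of the reported value. The cosine fit moved 3, to 1.85 in MNase at 16, 2.15 in MNase at 128 and 1.71 in MNase-H3 at 0.5. The ATAC summit ratio stayed below 1 in its alternatives and moved to 0.868 on the deposited scale. The level at the motif depended most on the settings. With a window of 100 bp the direction reversed in MNase at 0.5 (1.01) and 16 (1.01), and the ratio moved to 1.05 in MNase at 128 and to 1.03, 1.06 and 1.06 in MNase-H3 at 0.5, 16 and 128; the wider window takes in the first peaks. Not divided by the flank, it reversed to 1.23 in MNase at 0.5 and moved to 0.788 at 16, 0.801 at 128, and 1.13 and 0.843 in MNase-H3 at 0.5 and 128, which carries the shift of the flank. First peak distances left their reported value by more than the left-right spread in 22 of 48 alternatives. That spread is smaller than the full distance between the sides. In mitotic MNase at 0.5 a change from 80 to 92 bp was counted, with the sides at 79 and 95 bp. No paired analysis was possible because the table holds profiles combined over libraries, which carry no replicate numbers; for the same reason no library could be left out. Unknown depth and unknown numbers of sites limit every value.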

Other observations

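The smoothed versions deposited with the table differed most from the per-base profiles in 1 case, which changes how the bookmarked sites look. In interphase MNase-H3 at concentration 128 the deposited smooth curve had a wave height of 0.00263, which is 3.18% of the 0.0828 fitted to the per-base profile, and it had 2 maxima where the mitotic curve of the same assay and concentration had 12. In the 6 mitotic profiles the smooth curves held 96.5% to 102% of the per-base wave height, and in the other 5 interphase profiles they held 71.0% to 101%. The interphase share was 94.2%, 101% and 75.2% in MNase at 0.5, 16 and 128, and 83.9% and 71.0% in MNase-H3 at 0.5 and 16. Where the interphase share was low, a contrast between interphase and mitosis drawn from the smooth curves is larger than in the per-base values. The gap is widest in MNase-H3 at 128, where the per-base ratio of wave heights was 1.68.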
